A study of Mus musculus with 36 samples.

Results

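Cluster miRNAs of the miR-17 and miR-92 families and their host genes were followed through the epithelium of the mouse small intestine. The set held 8 members: 6 mature miRNAs (mmu-mir-17-5p, mmu-mir-92a-1-3p, mmu-mir-92a-1-5p, mmu-mir-106a-5p, mmu-mir-20b-5p and mmu-mir-106b-3p, written below without the species prefix) and the host genes Mcm7 and Mir17hg. They were taken by name from a table of 2670 miRNA entries and from 2 single-cell libraries that list 27998 genes. All tissue was small intestine of strain C57BL6/2J, and no group in these comparisons carried a labelled mutation or drug.

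The miRNA values came from small RNA libraries of sorted cells: 4 each of Sox9 Negative, Sox9 Low, Sox9 High, CD24Low and goblet cells, 2 of Lgr5 High, 6 of Paneth and 3 of Tuft cells. The sorts used Sox9, which encodes a transcription factor of crypt cells, the surface protein CD24, and Lgr5, a receptor that marks crypt stem cells. The labels do not say which reporter or antibody set each gate. Samples numbered 3 of the Sox9 fractions carry the code HFD and the others the code chow, which the labels do not spell out. Nothing in the labels assigns libraries to separate animals, and p-values here reflect only how far the samples of a group scatter. In sorted bulk cells, fewer cells of a type and less RNA per cell cannot be told apart. The host genes were read in 2 single-cell libraries from WT mice of 12 months, in which the depositors had named 2614 cells: intestinal stem cells (ISC), progenitors, secretory progenitors, enterocytes, goblet, Paneth, enteroendocrine (EEC) and tuft cells.

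A miRNA cluster is a row of hairpins cut from 1 primary transcript. The Mir17hg transcript carries mir-17, mir-18a, mir-19a, mir-20a, mir-19b-1 and mir-92a-1, an intron of the replication gene Mcm7 carries mir-106b, and a paralogous cluster lies on the X chromosome. MYC and E2F factors drive these transcripts in proliferating cells, and the mature miRNAs repress brakes on cell division and survival such as Cdkn1a and Bcl2l11. Which mRNAs a miRNA can repress is set largely by its seed, bases 2 to 8. Each hairpin yields a 5p and a 3p strand, of which 1 is usually kept and the other degraded.

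The mature sequences of the members and of their closest relatives are shown with the seed in capitals, because the seed sorts them into families (RefSeq, GRCm38.p6).
miR-17-5p: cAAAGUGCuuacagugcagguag
miR-20a-5p: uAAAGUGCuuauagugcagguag
miR-106a-5p: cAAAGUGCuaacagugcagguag
miR-20b-5p: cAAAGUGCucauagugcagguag
miR-93-5p: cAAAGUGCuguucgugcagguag
miR-106b-5p: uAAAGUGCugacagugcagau
miR-92a-1-3p: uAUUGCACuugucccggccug
miR-25-3p: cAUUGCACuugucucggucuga
miR-92a-1-5p: aGGUUGGGauuugucgcaaugcu
miR-106b-3p: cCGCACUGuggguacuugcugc

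Of the members, miR-17-5p, miR-106a-5p and miR-20b-5p share the seed AAAGUGC with miR-20a-5p, miR-93-5p and miR-106b-5p. miR-92a-1-3p shares AUUGCAC with miR-25-3p, and its mature sequence is identical to that of miR-92a-2-3p from the X chromosome. The strands miR-92a-1-5p and miR-106b-3p each have a seed of their own within the clusters. Counted from the 5′ end and with the base of miR-17-5p first, miR-106a-5p differs from it by U10A, miR-20b-5p by U10C and C12U, and miR-20a-5p by C1U and C12U. miR-93-5p differs by U10G, A11U, C12U and A13C. All of these changes lie outside the seed.

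In GRCm38.p6, miR-17-5p lies on chromosome 14 at 115043684 to 115043706 (+), with miR-92a-1-5p at 115044437 to 115044459 and miR-92a-1-3p at 115044476 to 115044496. The 6 hairpins span 836 bases, all within the exon of the Mir17hg transcript (115042879 to 115046727). miR-106a-5p and miR-20b-5p lie on chromosome X at 52742541 to 52742563 (-) and 52742159 to 52742181 (-), in a cluster of 6 hairpins over 875 bases. miR-106b-3p lies on chromosome 5 at 138165746 to 138165767 (-), in a cluster of 3 hairpins over 498 bases inside Mcm7 (138164583 to 138172422, -). The mir-106b hairpin was intronic in the annotated transcripts of Mcm7, while mir-93 and mir-25 also overlapped an exon of 1 transcript.

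Libraries held 475678 to 30958439 reads. Reads ran from 2241831 to 6474637 in Sox9 Negative, 1744418 to 4922437 in Sox9 Low, 2945821 to 9229136 in Sox9 High, 16013732 to 24611108 in Lgr5 High, 13348905 to 30958439 in CD24Low, 2575073 to 3862826 in Paneth, 689763 to 1636615 in goblet and 475678 to 720400 in Tuft libraries. Values are normalised read counts, deposited after division by a factor per library, and nothing under 10 reads is listed, so a value of 0 can hide up to 68.9 in the shallowest Tuft library. Tests therefore used log2 of the value with everything under 100 raised to 100. Lanes and label formats differ between most populations, so population and sequencing run cannot be told apart. Of 6 stromal miRNAs such as miR-143-3p, summed values were 646 to 972 in Sox9 Negative, 152 to 222 in Sox9 Low, 51.7 to 100.05 in Sox9 High, 26.9 to 27.8 in Lgr5 High, 639 to 2220 in CD24Low, 27.8 to 342 in Paneth, 100.3 to 241 in goblet and 289 to 557 in Tuft libraries. Of these 6, 5 were at 0 in goblet libraries, 0 in CD24Low libraries and 3 in each other population. The leukocyte miRNAs listed were at 0 in all Sox9, goblet and Tuft libraries and reached at most 240.5, in a Paneth library. The 2 endothelial miRNAs summed to 54.1 to 80.2 in Lgr5 High and 77.0 to 212 in CD24Low libraries. They reached at most 119 in Sox9 Low and 22.8 in Sox9 High libraries and were at 0 in the others. The part of such cells in the results was not tested.

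All 6 member miRNAs differed between the 8 populations by the moderated F test (limma, Benjamini-Hochberg), against a background of 84.1% of the 473 entries tested. For miR-106a-5p that is no finding, since it passed the filter, a value over 100 in at least 2 libraries, through Sox9 Negative libraries alone. An entry was called higher or lower in a population when its adjusted p was under 0.05 and its log2 difference from the mean of the other 7 populations was at least 1. In Sox9 Negative cells 4 members were called higher (miR-17-5p, miR-92a-1-3p, miR-106a-5p and miR-20b-5p) and none lower, where 27.5% of all entries were called. Leaving out miR-106a-5p, whose call the filter fixed, 3 of 5 were higher. Only miR-92a-1-3p was called in Sox9 Low (background 19.2%) and in Sox9 High cells (20.3%), higher in both. Lgr5 High cells had miR-92a-1-5p higher (24.7%). CD24Low cells had miR-17-5p higher and miR-92a-1-3p lower (17.1%), and no member was called in Paneth cells (15.0%). Goblet cells had miR-17-5p and miR-92a-1-3p lower (25.8%), and Tuft cells had both of these and miR-106b-3p lower (27.3%).

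**Figure D1:**
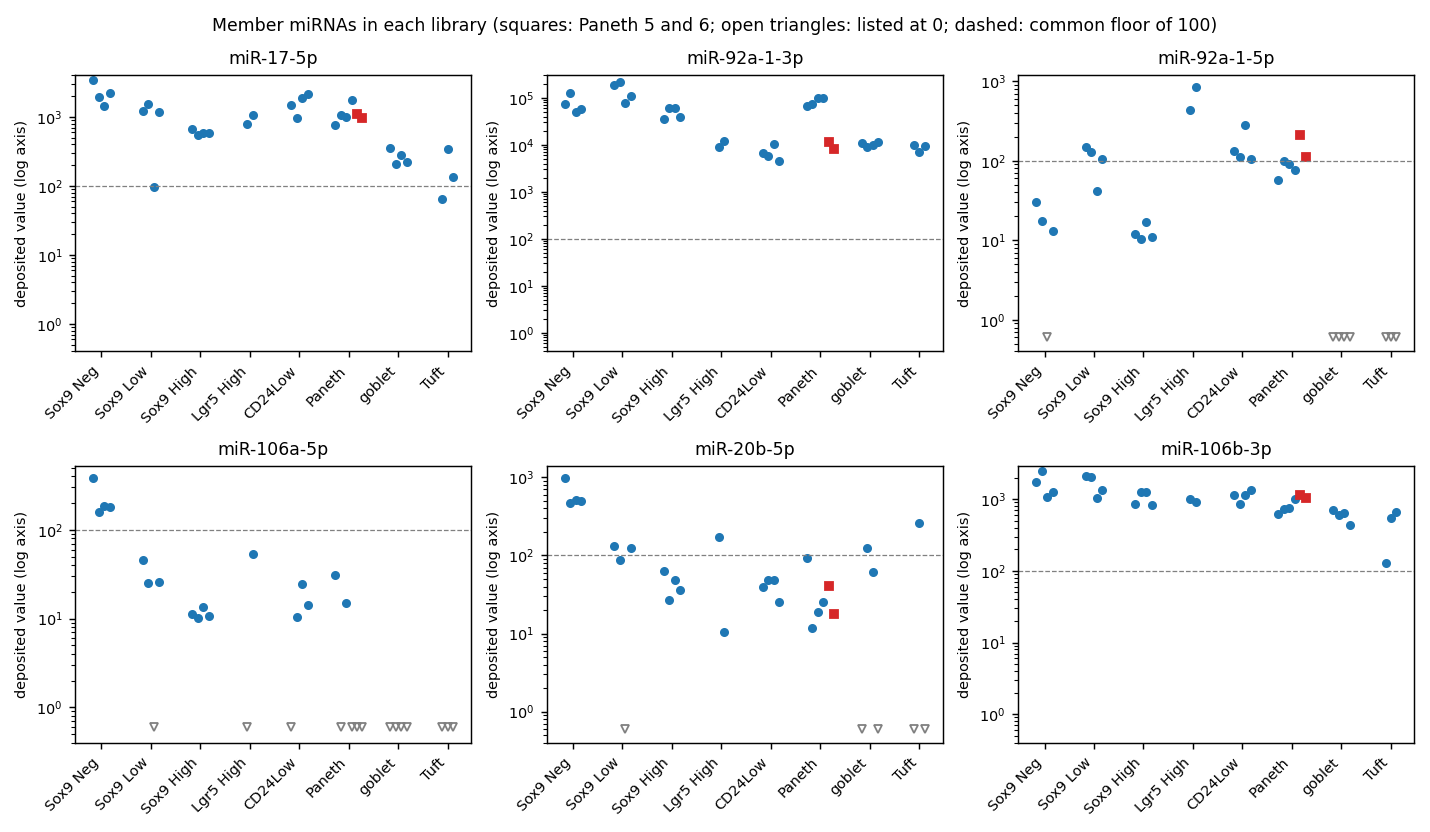
Normalised value of each member miRNA in every library, on a log axis, with 1 panel per miRNA. Points are libraries grouped by population, squares are Paneth libraries 5 and 6, open triangles mark libraries listed at 0, and the dashed line is the floor of 100 used for tests. miR-106a-5p lies above the floor in the Sox9 Negative libraries alone, and in miR-92a-1-3p the Paneth squares sit apart from the other Paneth libraries.

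miR-17-5p, the miRNA that gives the cluster its name, was highest in Sox9 Negative and CD24Low cells and lowest in goblet and Tuft cells. Its values were 3372, 1957, 1432 and 2246 in Sox9 Negative, 1214, 1518, 96.4 and 1173 in Sox9 Low, and 664, 552, 588 and 582 in Sox9 High libraries. The Sox9 High libraries all lay under the Sox9 Negative ones, and Sox9 Low overlapped Sox9 Negative through its library 2, with library 3 of Sox9 Low (46 reads) below all other Sox9 libraries. Lgr5 High libraries had 798 and 1067, and CD24Low libraries had 1471, 957, 1870 and 2144. Paneth libraries ran from 762 to 1759 with a median of 1034. Goblet libraries had 351, 209, 279 and 222, and Tuft libraries had 64.9, 344 and 136, all under every library of the other populations except library 3 of Sox9 Low.

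Against the mean of the other populations, miR-17-5p was higher by a log2 value of 1.85 ± 0.42 (SE) in Sox9 Negative cells (limma, adjusted p = 0.000564) and by 1.30 ± 0.42 in CD24Low cells (limma, adjusted p = 0.0155). The CD24Low call was lost without its library 3 (1.21; limma, adjusted p = 0.0571) or 4 (1.14; limma, adjusted p = 0.0758). It was lower in goblet cells (-1.63 ± 0.42; limma, adjusted p = 0.00184) and in Tuft cells (-2.36 ± 0.47; limma, adjusted p = 0.000165). By the mean log2 value after the floor, the order was Sox9 Negative, CD24Low, Paneth, Lgr5 High, Sox9 Low, Sox9 High, goblet and Tuft, and no population was called against its neighbour in that order. Over all pairs of populations, 14 of 28 were called, against 29.0% of all entries and pairs. Both populations in which miR-17-5p was called higher were those with the most of the summed stromal miRNAs. Tuft cells, where miR-17-5p was lowest, had the next highest maximum of that sum (289 to 557). The part of stromal cells was not tested.

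Between the Sox9 fractions, miR-17-5p fell by 1.85 in log2 in Sox9 High against Sox9 Negative cells (SE 0.54; limma, adjusted p = 0.00638) and by 1.65 in Sox9 Low against Sox9 Negative cells (SE 0.54; limma, adjusted p = 0.0158). In the first contrast 33.2% and in the second 29.2% of all entries were called. The Sox9 Low call was lost without library 3 of that fraction (-0.73; limma, adjusted p = 0.1102), without library 1 of Sox9 Negative (-1.44; limma, adjusted p = 0.0550), without the 3 libraries coded HFD (-0.93; limma, adjusted p = 0.0541) and with edgeR on the recovered reads (-1.02; adjusted p = 0.113). Rescaled to library totals, the change was -0.75 in Sox9 High and -0.65 in Sox9 Low cells against Sox9 Negative cells, and neither was called. The Sox9 Negative differences from the other populations were then 0.94 for miR-17-5p and 0.88 for miR-92a-1-3p, neither called (limma, adjusted p = 0.0909 and 0.126). In that scaling the higher against lower calls of all entries in Sox9 Negative cells turned to 43 and 97, where the deposited scale gave 77 and 53.

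miR-92a-1-3p, the last miRNA of the same transcript and the most abundant member, had another order: it was highest in Sox9 Low cells and lowest in CD24Low cells. Its values were 75399.6, 125719, 50324 and 56955 in Sox9 Negative, 188243, 214039.5, 78416 and 110647 in Sox9 Low, and 36220.0, 60586, 60450.1 and 39148 in Sox9 High libraries. Sox9 Low libraries lay above all Sox9 High libraries and overlapped Sox9 Negative ones. Lgr5 High libraries had 9042 and 12089, and CD24Low libraries had 6779, 5668, 10679 and 4494. Goblet libraries had 10807, 8851, 9954 and 11556, and Tuft libraries had 9820.5, 7203 and 9547. These 4 populations overlapped each other and lay under every Sox9 library. As a share of all listed reads, miR-92a-1-3p made up 1.15% in Sox9 Negative, 4.82% in Sox9 Low and 1.65% in Sox9 High libraries.

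The difference of miR-92a-1-3p from the mean of the other populations was 1.80 ± 0.44 in Sox9 Negative cells (limma, adjusted p = 0.00141) and 2.85 ± 0.44 in Sox9 Low cells (limma, adjusted p = 1.2e-05). It was 1.12 ± 0.44 in Sox9 High cells (limma, adjusted p = 0.0435), a call that was lost when any 1 of the 4 Sox9 High libraries was left out (differences 1.00 to 1.25), and also without library 3 or 4 of Sox9 Negative, 4 of Sox9 Low, 1 of Lgr5 High, 4 of CD24Low or 3 of Tuft (adjusted p = 0.0505 to 0.0621, limma). miR-92a-1-3p was lower in CD24Low (-2.16 ± 0.44; limma, adjusted p = 0.000347), goblet (-1.42 ± 0.44; limma, adjusted p = 0.0101) and Tuft cells (-1.67 ± 0.50; limma, adjusted p = 0.00742). In Lgr5 High cells the difference was -1.38 ± 0.60 and was not called (limma, adjusted p = 0.0690). In Sox9 High against Sox9 Low cells it was -1.52 ± 0.58 and was not called either (limma, adjusted p = 0.0793), where 10.6% of all entries were called. The value was lower in Sox9 High in all 4 same-numbered pairs, and with the number as a block over the 12 Sox9 libraries the difference of -1.52 ± 0.29 was called (limma, adjusted p = 0.00842). It was also called in those 12 libraries without the block (SE 0.37; limma, adjusted p = 0.0136) and without Paneth libraries 1 to 4 (SE 0.32; limma, adjusted p = 0.00149). Of the 28 pairs of populations, 17 were called, against 29.0% of all entries and pairs.

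Paneth libraries fell into separate sets for miR-92a-1-3p. Libraries 1 to 4 had 68523, 74348, 101613 and 97735, and libraries 5 and 6 had 11343 and 7985, so the first set averaged 8.85 times the second. The sets did not overlap, and libraries 5 and 6 lay in the range of goblet and Tuft libraries, whose label format they share. For miR-17-5p, cut from the same transcript, the ratio of the sets was 1.12. miR-25-3p, which has the same seed, averaged 15291 in libraries 1 to 4 and 16211 in libraries 5 and 6. For the X copy miR-92a-2-3p, which cannot be told from miR-92a-1-3p by mature sequence, the ratio was 1.96. For the passenger strand miR-92a-1-5p it was 0.509. Lane, label format and sort of the sets cannot be told apart. With all 6 libraries, the Paneth difference was 0.86 ± 0.38 and was not called (limma, adjusted p = 0.0719).

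miR-92a-1-5p is the other strand of the mir-92a-1 hairpin, usually the degraded one, and was highest in Lgr5 High cells. It had 439 and 846 in Lgr5 High libraries and 132, 110.4, 279 and 104 in CD24Low libraries. Sox9 Negative libraries had 29.9, 17.3, 0 and 13.0, Sox9 Low libraries had 149, 129, 41.9 and 107, and Sox9 High libraries had 11.9, 10.2, 17.1 and 11.1. Paneth libraries ran from 56.9 to 209.8 with a median of 96.3, and goblet and Tuft libraries were listed at 0. Both Lgr5 High libraries lay above every other library. In the fit, Sox9 Negative, Sox9 High, goblet and Tuft libraries all lay at the floor and so added no spread. The difference was 2.47 ± 0.25 (limma, adjusted p = 6.5e-09), and the step down to CD24Low cells, next in order, was 2.08 (limma, adjusted p = 6.8e-06). Its level was 5.92% of that of miR-92a-1-3p in Lgr5 High cells, 2.21% in CD24Low cells and 0.0191% to 0.0723% in the Sox9 fractions. The strands of this hairpin thus did not keep 1 proportion, and within Paneth cells they did not either. There miR-92a-1-5p averaged 81.8 in libraries 1 to 4 and 161 in libraries 5 and 6, and miR-92a-1-3p averaged 85555 and 9664. The proportion therefore also moved with library set within 1 population. Lgr5 High and CD24Low cells, first and second for miR-92a-1-5p, were also the populations with neither endothelial miRNA at 0 throughout, and the part of such cells was not tested.

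miR-106a-5p and miR-20b-5p, the X chromosome counterparts of miR-17-5p and miR-20a-5p, were highest in Sox9 Negative cells. miR-106a-5p had 381, 159, 187 and 182 in Sox9 Negative, 46.1, 25.3, 0 and 25.8 in Sox9 Low, and 11.3, 10.2, 13.7 and 10.8 in Sox9 High libraries. In Lgr5 High, CD24Low and Paneth libraries it reached at most 53.9, and it was listed at 0 in goblet and Tuft libraries. All 4 Sox9 Negative libraries lay above every other library. On the floored scale the difference was 1.09, with every other library at the floor. It is given as a description without a test, because miR-106a-5p entered the fit only through the libraries where it was high. Without library 1 of Sox9 Negative it was 0.81 and under the limit of 1, and rescaled to library totals it was 0.46.

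miR-20b-5p had 971, 467, 511 and 503 in Sox9 Negative, 131, 87.1, 0 and 123 in Sox9 Low, and 63.5, 27.0, 47.9 and 36.3 in Sox9 High libraries. Lgr5 High libraries had 174 and 10.5, CD24Low 40.05, 48.4, 48.5 and 25.1, and Paneth 12.0 to 91.8 with a median of 21.9. Goblet libraries had 0, 125, 62.0 and 0, and Tuft libraries 0, 262 and 0. The Sox9 Negative libraries again lay above all others. The difference was 2.39 ± 0.18 (limma, adjusted p = 7.2e-12), and 2.14 without library 1 of Sox9 Negative (limma, adjusted p = 1.0e-10). miR-20b-5p fell by 2.55 in Sox9 High and by 2.37 in Sox9 Low against Sox9 Negative cells (limma, adjusted p = 4.3e-10 and 2.1e-09). Without the floor these differences were -3.78 and -4.08 and neither was called (limma, adjusted p = 0.0690 and 0.0572). As a share of miR-17-5p, miR-106a-5p stood at 10.1% in Sox9 Negative cells and at no more than 2.53% in the mean of any other population. miR-20b-5p stood at 27.7% of miR-17-5p in Sox9 Negative, 6.76% in Sox9 Low, 7.21% in Sox9 High, 11.4% in Lgr5 High, 2.89% in CD24Low and 3.68% in Paneth cells. Its mean share was 20.6% ± 28.3 (SD, n = 4) in goblet and 25.3% ± 43.9 (SD, n = 3) in Tuft cells, close to that in Sox9 Negative cells, with 2 libraries at 0 in each.

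miR-106b-3p, from the intron of Mcm7, was lowest in Tuft cells and had a value in every library. It had 1723, 2483, 1064 and 1278 in Sox9 Negative, 2123, 2024, 1042 and 1333 in Sox9 Low, and 859, 1269, 1263 and 839 in Sox9 High libraries, which overlapped throughout. Lgr5 High libraries had 993 and 919, CD24Low 1125, 846, 1125 and 1333, and Paneth 622 to 1158 with a median of 874. Goblet libraries had 698, 602, 639 and 438, and Tuft libraries had 129.8, 537 and 672. It was called lower in Tuft cells (-1.53 ± 0.32; limma, adjusted p = 0.000247). Without the Tuft library at 129.8, which held 24 reads of it, the difference was -0.79 and under the limit of 1. In Sox9 Negative and Sox9 Low cells its differences were 0.88 and 0.89, past the adjusted p but under that limit. Over the pairs of populations, 8 of 28 were called, near the 29.0% of all entries and pairs.

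Across both arms of all 3 clusters, 28 entries were listed and 17 passed the filter. Of these, 16 were over 100 in libraries of more than 1 population, and miR-106a-5p was not. In Sox9 Negative cells 7 of the 17 were called higher and 0 lower, with a median log2 difference of 0.70 against -0.06 over all entries (6 of 16 without miR-106a-5p). Beside the members these were miR-20a-5p (2.29 ± 0.31; limma, adjusted p = 5.9e-07), miR-106b-5p (1.46) and miR-93-5p (1.35), so 5p strands of all 3 clusters with the AAAGUGC seed were higher there. CD24Low cells had 3 called higher (miR-17-5p, miR-20a-5p and miR-19a-3p) and 1 lower, with medians of 0.08 and -0.05. In Sox9 High cells both copies of miR-19b-3p were lower (-1.02 each). These copies have 1 mature sequence and are both counted among the 17. Of the 17, goblet cells had 6 and Tuft cells 5 called lower and none higher. Their medians were -0.81 and -0.84 against -0.13 and -0.14 over all entries. Of all entries, 27.5% were called in Sox9 Negative, 17.1% in CD24Low, 20.3% in Sox9 High, 25.8% in goblet, 27.3% in Tuft and 15.0% in Paneth cells. In Paneth cells none was called.

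Lgr5 High cells had 3 of the 17 entries called higher: miR-92a-1-5p, miR-92a-2-3p (1.47 ± 0.37; limma, adjusted p = 0.00276) and miR-25-5p (2.14 ± 0.31; limma, adjusted p = 2.8e-06). Of all entries, 24.7% were called there. The mature sequence of miR-92a-2-3p is identical to that of miR-92a-1-3p, whose difference in Lgr5 High cells was negative and not called. Reads of the copies cannot be told apart by sequence, so the call is no evidence of a rise of the X copy. miR-25-5p is the strand opposite miR-25-3p and averaged 544 in Lgr5 High libraries and 73.9 over the other populations. Between the Sox9 fractions, 9 of the 17 were called lower in Sox9 High against Sox9 Negative cells and 0 higher (median -1.09 against 0 over all entries). In Sox9 Low against Sox9 Negative cells 5 were lower and 0 higher. Without miR-106a-5p these counts were 8 and 4 of 16, with medians of -0.91 and -0.64. Of all entries, 33.2% and 29.2% were called in these contrasts. In Sox9 High against Sox9 Low cells 1 was lower, miR-92a-2-3p (-1.51 ± 0.36; limma, adjusted p = 0.00300), where 10.6% of all entries were called.

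**Figure D2:**
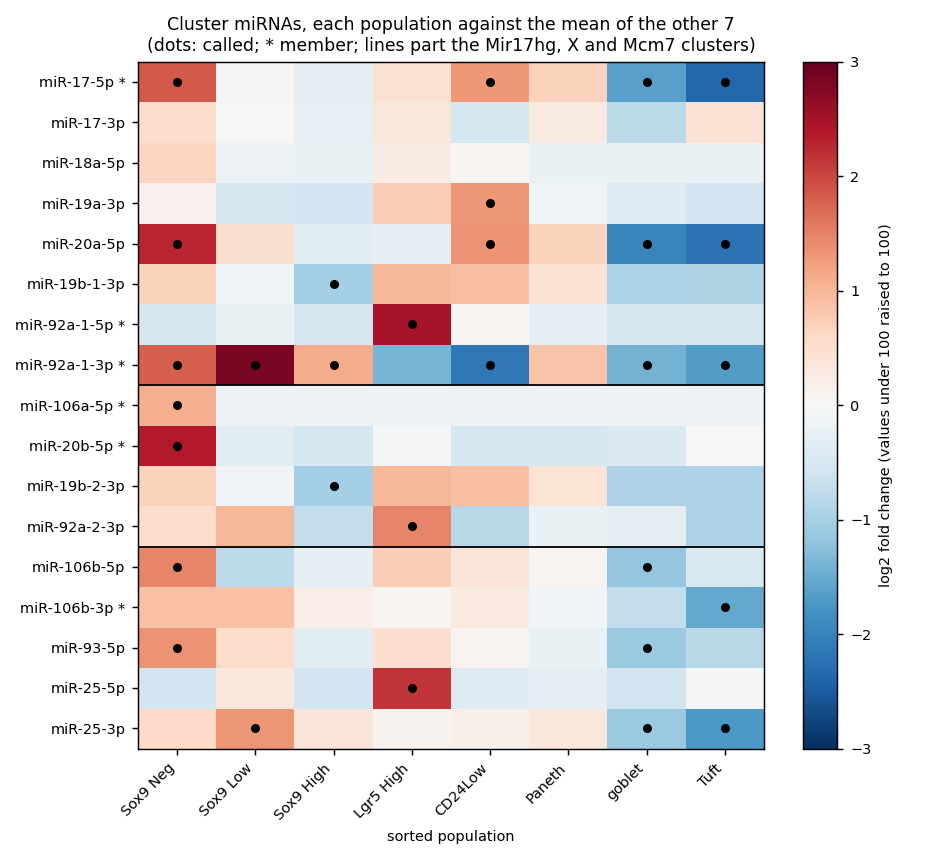
Log2 difference of each population from the mean of the other 7, for the 17 cluster entries tested (rows, grouped by cluster) in the 8 populations (columns). Colour gives the difference, dots mark calls and asterisks mark the members. Of the 17, 7 are called higher in Sox9 Negative cells, while goblet and Tuft cells hold 6 and 5 called lower. Of all entries, 27.5%, 25.8% and 27.3% were called in these populations.

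Read by seed, the AAAGUGC family was carried mainly by the Mcm7 cluster and the AUUGCAC family mainly by miR-92a-1-3p in the Sox9 fractions. Such shares compare read counts of different miRNAs, which also depend on how well each is ligated, so they are not counts of molecules. The summed AAAGUGC value averaged 23815 ± 7478 (SD, n = 4) in Sox9 Negative, 13241 ± 4923 in Sox9 Low and 7532 ± 335 in Sox9 High cells. It averaged 12116 in Lgr5 High, 11261 in CD24Low, 9028 in Paneth, 4426 in goblet and 5559 in Tuft cells. miR-93-5p made up 73.2% of it in CD24Low cells and 91.1% in Tuft cells, the lowest and highest means. The Mir17hg cluster, with miR-17-5p and miR-20a-5p, gave 17.96% in Sox9 Negative, 12.0% in Sox9 Low, 13.2% in Sox9 High, 24.0% in CD24Low and 4.76% in Tuft cells. The X cluster gave 3.61% in Sox9 Negative cells and 0.507% to 1.14% in the others.

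The AUUGCAC family split otherwise. miR-92a-1-3p made up 78.2% ± 2.05 of it in Sox9 Negative, 81.4% ± 1.36 in Sox9 Low and 73.9% ± 5.00 in Sox9 High cells (SD, n = 4 each). In CD24Low cells it made up 31.1% ± 7.22 (SD, n = 4), while miR-25-3p from the Mcm7 cluster made up 64.3%. In Lgr5 High cells miR-92a-1-3p gave 37.7%, miR-25-3p 47.9% and miR-92a-2-3p 14.2%. The Paneth sets parted here as well, with 83.1% of miR-92a-1-3p in libraries 1 to 4 and 35.9% in libraries 5 and 6. Because miR-92a-1-3p and miR-92a-2-3p have 1 mature sequence, reads can be assigned to either copy only by the authors' rule, which is not given in the sources used here.

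**Figure D3:**
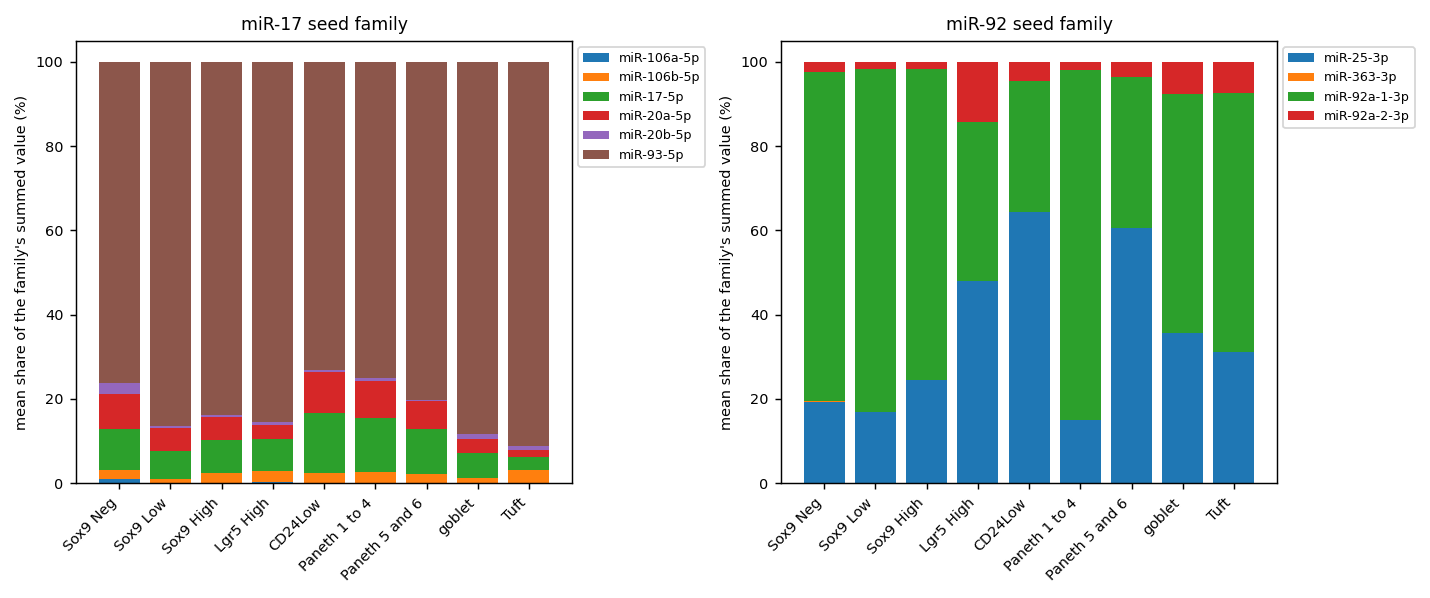
Mean share (%) of each miRNA in the summed value of its seed family, AAAGUGC and AUUGCAC, as stacked bars by population, with Paneth libraries 1 to 4 and 5 and 6 drawn apart. miR-93-5p takes 73.2% to 91.1% of the first family, and the share of miR-92a-1-3p in the second is 81.4% in Sox9 Low and 31.1% in CD24Low cells.

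A ratio within a library does not depend on scaling between libraries. The log2 ratio of miR-17-5p to miR-92a-1-3p, products of 1 transcript, averaged -5.07 ± 0.68 in Sox9 Negative, -7.65 ± 1.35 in Sox9 Low and -6.33 ± 0.48 in Sox9 High cells (SD, n = 4 each). It averaged -3.50 in Lgr5 High and -2.09 in CD24Low cells. In Sox9 Low against Sox9 Negative cells the difference was -2.58 with no overlap of libraries (exact two-sided permutation test, p = 0.0286, the smallest 4 against 4 can give). The log2 ratio of miR-106b-3p to miR-17-5p averaged -0.47 in Sox9 Negative and 0.80 in Sox9 High cells, and was higher by 1.27 in Sox9 High cells (exact two-sided permutation test, p = 0.0286). Over the 6 ratio tests neither passed 0.05 after Benjamini-Hochberg adjustment (exact permutation tests, adjusted p = 0.0857 for both). The other 4 tests gave exact permutation p-values of 0.0571 to 0.857.

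Entries offset from the annotated ends (isomiRs) were few. The 5 such entries of miR-17-5p summed to 3.99% of all its reads in Sox9 Negative, 10.2% in Sox9 Low and 3.04% in Sox9 High libraries, and the Sox9 Low mean rested on library 3, at 31.3%. The 11 of miR-92a-1-3p made up 1.02% (goblet) to 3.81% (Lgr5 High), and the 5 of miR-106b-3p 5.42% to 6.86% outside goblet and Tuft cells, where they were at 0.

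Profiles over the 8 population means were set beside all other tested entries, as a description with no test. The nearest to miR-17-5p were miR-221-3p (Pearson r = 0.989), miR-20a-5p (0.965) and miR-26b-5p (0.907). miR-92a-1-3p was nearest to miR-532-5p (0.926), miR-30a-3p (0.892) and miR-345-3p (0.883), and its r with miR-17-5p was 0.339. miR-92a-1-5p was nearest to both copies of miR-218-5p (0.991 each) and to miR-30b-3p (0.942), and it had an r of 0.941 with miR-25-5p. miR-106a-5p and miR-20b-5p had an r of 0.978 with each other, and miR-582-3p and miR-677-5p were the other neighbours of both. miR-106b-3p was nearest to its cluster mate miR-25-3p (0.953), then to miR-98-5p (0.913) and miR-107-3p (0.904). All means share the same 31 libraries and their depths, and the floor makes low profiles alike.

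Of the hosts, Mcm7, a subunit of the helicase that opens DNA for replication, was highest in ISC and progenitors and lowest in enterocytes. Counts of UMIs (single molecules) were summed per library and cell type and are given as CPM, counts per 1e6 UMIs of the same sum, library 1 then library 2. Mcm7 had 73.7 and 98.6 CPM in ISC, 61.2 and 75.4 in progenitors and 51.4 and 47.7 in secretory progenitors. EEC had 34.9 and 49.3, tuft 14.1 and 32.7, Paneth 5.80 and 15.8, goblet 9.79 and 5.11 and enterocytes 4.38 and 5.22 CPM. ISC and progenitors lay above all other types in both libraries. The Mcm7 sums held 2263 UMIs in all, from 6 in tuft cells of library 1 to 915 in progenitors of library 2.

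Tests on these sums used edgeR's quasi-likelihood F test with library as a block and Benjamini-Hochberg adjustment over 11610 genes, after TMM scaling, which sets each sum by its typical gene. With the same limits as for miRNAs, Mcm7 was called higher in ISC (1.88 ± 0.16, SE; edgeR adjusted p = 1.7e-08) and in progenitors (1.44 ± 0.13; edgeR adjusted p = 6.8e-09). Of all genes, 9.31% were called in ISC and 9.70% in progenitors. It was called lower in enterocytes (-2.58 ± 0.19; edgeR adjusted p = 3.3e-11), where 31.3% of genes were called, and in goblet cells (-2.13 ± 0.23; edgeR adjusted p = 6.0e-08), where 14.2% were. In secretory progenitors the difference was 0.82, under the limit of 1, and scaled by total UMIs it was 1.22 and called. Over all pairs of cell types 17 of 28 were called, against 18.3% of all genes and pairs.

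The Paneth direction turned with the scaling. In the Paneth sums the 10 most abundant genes held 79.4% and 63.3% of UMIs, and TMM scaling gave Mcm7 a difference of 0.75 that was not called, although its CPM averaged 10.8 in Paneth cells and 40.2 over the other types. Scaled by total UMIs, the difference was -1.36 ± 0.28 and was called (edgeR adjusted p = 2.6e-06). That scaling moved the median of all genes by -2.10 in Paneth cells, 0.67 in EEC, 0.57 in tuft cells, 0.36 in secretory progenitors, 0.32 in progenitors and 0.27 in ISC. The share of calls that were higher moved with it, to 1.92% under total UMIs against 72.0% under TMM in Paneth cells, 96.7% against 69.5% in EEC, 96.0% against 73.1% in tuft cells, 94.5% against 80.2% in secretory progenitors, 75.7% against 50.5% in progenitors and 70.1% against 41.3% in ISC. The ISC, progenitor, enterocyte and goblet directions of Mcm7 were the same in both.

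Mir17hg, the noncoding host of the mir-17 cluster, was sparse, with 245 UMIs in all. It had 8.29 and 11.03 CPM in ISC (10 and 16 UMIs), 5.64 and 5.36 in progenitors, 9.67 and 4.41 in secretory progenitors and 0.313 and 1.76 in enterocytes (2 and 27 UMIs). Tuft cells had 7.05 and 8.60 CPM and EEC 5.51 and 7.39, each from 3 to 6 UMIs, goblet cells had 1.63 and 1.96 and Paneth cells 1.36 and 1.13. Both ISC sums lay above both progenitor sums but overlapped secretory progenitors and tuft cells. Against progenitors alone, ISC were not called (0.87; edgeR adjusted p = 0.307). Mir17hg was called higher in ISC (1.24 ± 0.45; edgeR adjusted p = 0.0450) and lower in enterocytes (-1.79 ± 0.39; edgeR adjusted p = 0.000356). The ISC call was lost without the library block (edgeR adjusted p = 0.130) and with DESeq2 (adjusted p = 0.0664). The Paneth difference was 0.34 under TMM and -1.81 under total UMIs, where it was called. Of the pairs of cell types, 5 of 28 were called, near the 18.3% of all genes and pairs.

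**Figure D4:**
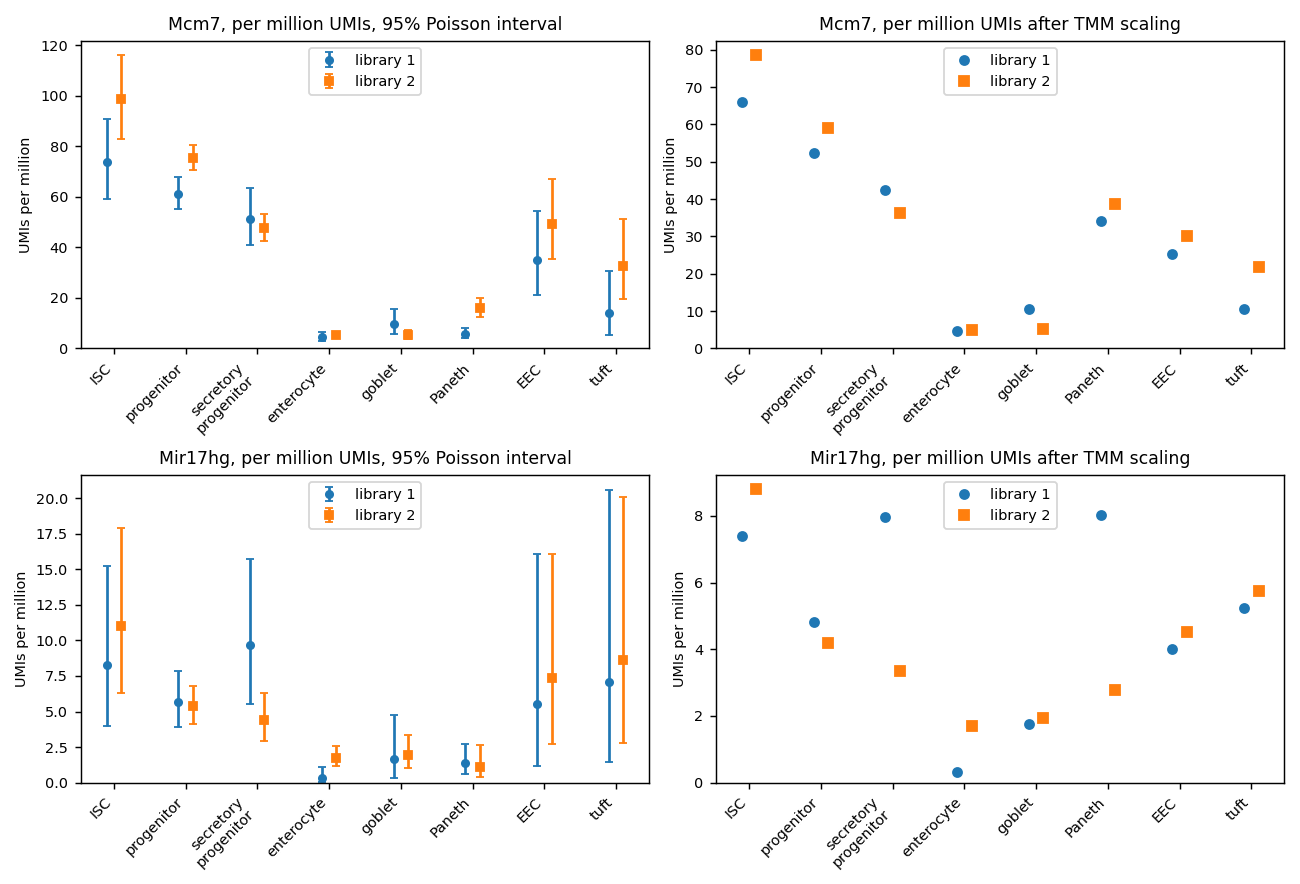
Mcm7 and Mir17hg in the 8 cell types of each single-cell library, as CPM with 95% Poisson intervals (left, counting error only) and after TMM scaling (right). ISC and progenitors lead for Mcm7, and Paneth cells, at 5.80 and 15.8 CPM for Mcm7, move up once TMM scaling is applied.

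By cells, Mcm7 was detected in 62.8% and 75.0% of ISC and in 5.91% and 14.1% of enterocytes, mature absorptive cells that do not divide and stand here for the background. Median UMIs per cell were 15150 and 16514 in ISC and 15164 and 24698 in enterocytes. At 2000 UMIs per cell the shares were 10.3% and 14.1% in ISC and 1.23% and 0.616% in enterocytes. Mir17hg was detected in 11.5% and 18.8% of ISC and in 0.4926% and 5.33% of enterocytes. At 2000 UMIs it was in 0% and 3.85% of ISC, where 0 of 78 cells allows up to 4.62% (exact binomial 95% interval), so its ranking at that depth was not detectable.

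The rest of the replicative helicase moved with Mcm7. Mcm2, Mcm3, Mcm4, Mcm5 and Mcm6 were called higher in ISC by 2.31, 2.16, 1.90, 1.95 and 2.15, and lower in enterocytes by log2 differences of -3.67, -4.39, -3.003, -4.36 and -3.02. A list of 21 genes of replication licensing and the fork includes Mcm2 to Mcm7, so its counts repeat them. Its medians in progenitors and in enterocytes are the values of Mcm7 itself. Of the 21, ISC had 12 higher and 0 lower (median 1.28, against -0.04 over all genes). Progenitors had 19 higher and 0 lower (1.44 against 0.10). Secretory progenitors, where 6.10% of genes were called, had 13 higher and 0 lower. Enterocytes had 0 higher and 19 lower (-2.58) and goblet cells 0 higher and 16 lower (-1.53). None was called in Paneth cells, EEC or tuft cells under TMM. Under total UMIs all 21 were lower in Paneth cells, where 9915 of 11610 genes were called and the median was -1.87 against -2.14 over all genes. In EEC 6 were higher, where 2768 genes were called (median 0.89 against 0.63).

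**Figure D5:**
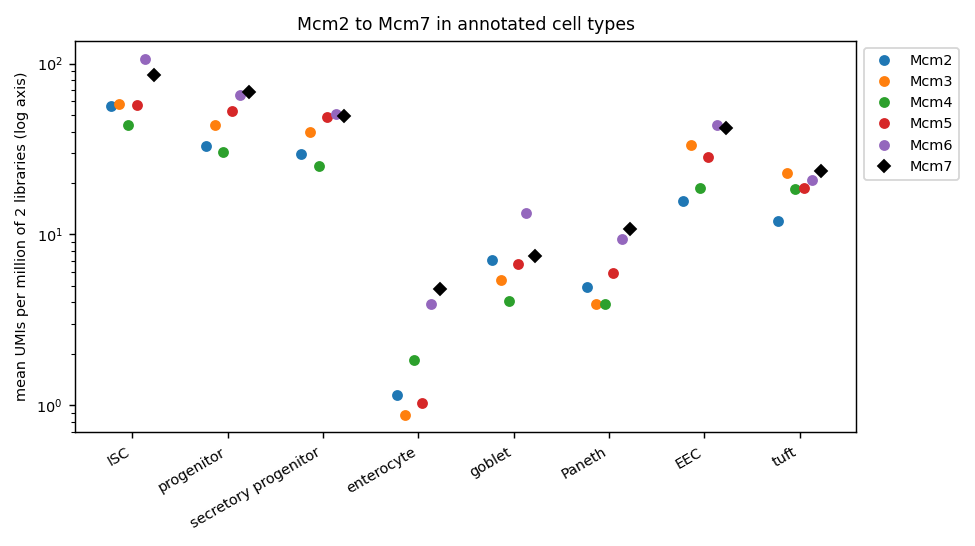
Mean CPM of the 2 single-cell libraries for the helicase subunits Mcm2 to Mcm7 by cell type, on a log axis. The 6 subunits are highest in ISC, where Mcm7 averages 86.1 CPM, and lowest in enterocytes, where it averages 4.80 CPM.

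A list of 14 mitosis genes went another way in ISC. There 0 were higher and 4 lower, Aurka (-2.45), Aurkb (-2.30), Top2a (-1.41) and Cenpf (-1.18), with a median of -0.59. Under total UMIs 2 were higher and 3 lower. In progenitors and in secretory progenitors all 14 were higher (medians 2.37 and 2.14), and in enterocytes and goblet cells all 14 were lower. Tuft cells, where 6.86% of genes were called, had 10 higher, and EEC, where 14.2% were, had 1 (Top2a). Under total UMIs 13 were higher in tuft cells (1552 genes called), 7 were higher in EEC and all 14 were lower in Paneth cells, with a median of -1.95 against -2.14 over all genes.

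In a list of 9 genes, from the Myc and E2F families with Ccnd1, activators and repressors of transcription were not told apart. Of these, Myc (2.03 ± 0.18; edgeR adjusted p = 4.7e-08), Mycn (3.07) and E2f1 (1.56) were higher in ISC. Progenitors had 5 higher, Mycn (2.51), E2f8 (2.00), E2f7 (1.95), E2f1 (1.43) and the cyclin Ccnd1 (1.05), and secretory progenitors had E2f7 (1.54), E2f8 (1.45) and E2f1 (1.23). Enterocytes had E2f7 (-4.24), E2f1 (-3.59), E2f8 (-2.81) and Myc (-2.23) lower. In Paneth cells, where 11.8% of genes were called, E2f2 was lower (-1.91). Under total UMIs 8 of the 9 were lower in Paneth cells (median -1.88 against -2.14 over all genes). Mycn had a mean of 4.21 CPM in ISC and E2f7 0.157 CPM in enterocytes, so these values rest on few UMIs.

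Of 13 textbook targets of the seeds, 12 were tested, and they did not move 1 way. In ISC the pro-death gene Bcl2l11 (1.57) and E2f1 (1.56) were higher and the cell-cycle inhibitors Cdkn1a (-2.91) and Rb1 (-1.45) lower. In enterocytes Cdkn1a (1.10) and Rb1 (1.05) were higher and E2f1 (-3.59), Tgfbr2 (-1.70), Cdkn1c (-1.23) and Zbtb4 (-1.21) lower. EEC had Cdkn1c (7.45), Cdkn1a (2.87) and the repressor Zbtb4 (1.80) higher. The median of the 12 was -0.11 in ISC and -0.06 in enterocytes, against -0.04 in both over all genes. Sorted miRNA populations and named cell types came from different samples, so miRNA and host values were not joined.

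The cell types were checked against markers. Of 7 ISC markers 6 were highest in ISC, and all markers of enterocytes, goblet, Paneth, EEC and tuft cells were highest in their own type, but only 2 of 4 of the progenitor and 1 of 3 of the secretory progenitor markers were. Summed stromal markers reached 0.8285 CPM at most. Leukocyte markers summed to 135.8 to 152.8 CPM in tuft cells and to at most 100.6 CPM in any other type. Endothelial markers reached at most 18.8 CPM, in tuft cells of 1 library. The part of such cells in the tuft values was not tested. Erythroid markers summed to 1869 CPM in progenitors of 1 library and to 0.0824 CPM in those of the other, and their part in the progenitor values was not tested.

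Promoters of Mcm2, Mcm3, Mcm5, Mcm6 and Mcm7 were read for the E2F motif GGCGGGA on both strands, because these genes moved together. No window was available for Mcm4. The window listed for the host Mir17hg lay inside its hairpin cluster and was not used. In RefSeq's windows of 250 bases before to 50 after the start (GRCm38.p6), Mcm3 and Mcm5 held it and Mcm2, Mcm6 and both starts of Mcm7 did not, where 11.3% of 32851 promoters hold it. The E-box CACGTG was in none of these windows and in 7.15% of all promoters. Only these exact letters were searched, and other forms of either site were not looked for. The windows of Mcm5 (chr8:75109259-75109558, +), with the motif in capitals, and of the upstream start of Mcm7 (chr5:138171834-138172133, -) are shown to set a helicase gene with these letters beside the host, which lacks them.
Mcm5: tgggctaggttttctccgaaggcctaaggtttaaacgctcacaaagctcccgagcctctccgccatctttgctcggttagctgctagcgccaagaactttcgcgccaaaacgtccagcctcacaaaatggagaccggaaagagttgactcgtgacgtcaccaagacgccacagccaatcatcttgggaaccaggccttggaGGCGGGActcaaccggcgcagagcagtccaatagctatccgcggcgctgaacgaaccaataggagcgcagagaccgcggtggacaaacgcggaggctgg
Mcm7: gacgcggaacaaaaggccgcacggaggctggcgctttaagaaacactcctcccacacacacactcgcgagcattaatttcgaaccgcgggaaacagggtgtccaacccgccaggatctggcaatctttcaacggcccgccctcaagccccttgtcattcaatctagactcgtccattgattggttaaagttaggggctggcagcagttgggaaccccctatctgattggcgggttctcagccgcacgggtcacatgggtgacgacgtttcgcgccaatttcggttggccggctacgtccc

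Across the 8 cell types, mean profiles nearest to Mcm7 were those of Dtl (Pearson r = 0.987), Clca3b (0.986), Chaf1b, Notch2 and Cdo1 (0.984 each). Among those nearest to Mir17hg were Arhgap35 (0.995), Zfp566 (0.991), Gm13830 (0.986) and Epha4 (0.984). Dtl and Chaf1b act at replicating DNA. These are descriptions over 8 points that share 2 libraries.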

How the data were processed

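Small RNA libraries of sorted cells were made with the TriLink CleanTag kit and single-cell libraries with 10x Genomics Chromium, per the labels. The deposited miRNA signal is a read count that the authors divided by 1 factor per library, as the values show: within each library all of them are multiples of a common step, to 0.001 reads, and none lies under 10 reads. The submitters' processing notes name genome build mm9, and the sources used here do not give aligner, counter or scaling tool. The deposited single-cell matrices hold raw UMI counts, and the authors' cell type names were used. Positions and sequences are from RefSeq and the annotation of GRCm38.p6.

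Of 34 small RNA libraries 31 had a column. The 3 Progenitor libraries were not analysed here, and 3 columns that match no label were not used. The members, lists and rules were chosen with earlier results of these data known. Named genes are the members, the nearest 3 miRNAs or 5 genes by profile, Mcm2 to Mcm6, and of each list the called genes with the 4 largest changes; 1 gene that the rule names is not reported here.

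Values under 100 were raised to 100, and entries over 100 in at least 2 libraries (473) were fitted with limma 3.58.1 in R 4.3.3, with group means and a trend in the prior variance. UMI counts were summed over at least 10 cells per library and type and fitted with edgeR 4.0.16, of 27998 genes 11610 after its filter, with TMM and library as a block. The libraries shared 0 barcodes, and 1144 of 1209 and 1470 of 7711 barcodes had a cell type. Median UMIs of barcodes without one were 11041 and 1738. No doublets were removed in these steps, and the authors' treatment of them is not given here. Tests were two-sided, and p-values were adjusted by Benjamini-Hochberg. Poisson and exact binomial intervals cover counting error only. Replicate libraries correlated at 0.934 to 0.996 in log2 value. Both fits were tested on simulated data. Sox9 samples share numbers and a code in the labels, and deviations of same-numbered Sox9 High and Sox9 Low samples correlated at 0.229 to 0.445. Sample 1 of Sox9 High correlated better with another number of Sox9 Low than with its own. These samples were taken as paired only in the fit with the number as a block. The main fit and the permutation tests left the pairing out. Alternatives were the floor, the filter, the scaling, the block, the tool (edgeR, DESeq2 1.42.0) and leaving out libraries.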

Additional observations from a re-analysis of the deposited data

Results flagged for a closer look

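In groups of 4 to 10 libraries, the lowest or highest library of each member was set against Dixon's 95% critical value, which chance passes in about 1 of 20 groups. Of 25 groups tested, 4 passed. miR-17-5p had a value of 96.4 in Sox9 Low library 3, far under the other 3 at 1173 to 1518, while miR-92a-1-3p of the same library was at 78416. miR-92a-1-5p had 209.8 in Paneth library 5, with the other 5 at 56.9 to 111 and in part raised to the floor. miR-20b-5p had 971 in Sox9 Negative library 1, with the others at 467 to 511, and 125 in goblet library 2 (30 reads), with the others at 0 to 62.0.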

How the results depend on the processing

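Among 26 named contrasts, 880 alternative values were computed: 840 kept their direction and, where tested, their call. Of the rest, 37 were no longer called, 3 moved and 0 reversed. Host values from a single library had no test and were sorted into kept or moved by size alone. The named contrasts and the member counts below include miR-106a-5p, whose calls the filter fixed. Without it, the deposited scale gives 3 members called in Sox9 Negative cells. In Sox9 High and in Sox9 Low against Sox9 Negative cells it then gives 2 each.

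Rescaled to library totals, the members called became 1 in Sox9 Negative (4 on the deposited scale), 2 in Sox9 Low (1), 2 in Paneth (0) and 1 in Sox9 High against Sox9 Negative cells (3). That scaling gave 113 higher and 38 lower of all entries in Sox9 Low against Sox9 Negative (58 and 80 as deposited), 136 and 42 in Sox9 High against Sox9 Negative (68 and 89), 89 and 21 in Paneth (26 and 45), 76 and 49 in Sox9 High (40 and 56) and 63 and 94 in goblet cells (68 and 54). The median of all entries moved to -0.25 in Sox9 Negative (-0.06 as deposited), 0.06 in Paneth (-0.08) and -0.28 in goblet cells (-0.13). Without the floor they became 2 in Sox9 Low, 1 in Paneth, 4 in goblet (2), 5 in Tuft (3) and 1 in Sox9 High against Sox9 Low cells (0, miR-92a-1-5p). All 1057 entries then had 99 higher and 384 lower in goblet and 64 and 423 in Tuft cells, 173 and 98 in Sox9 Low and 210 and 115 in Paneth cells. With edgeR on the recovered reads they were 2 in Sox9 Low, 2 in Paneth, 1 in Sox9 High against Sox9 Low (miR-92a-1-5p) and 1 in Sox9 Low against Sox9 Negative cells (3). All 1082 entries then had 307 higher and 34 lower in Sox9 Low and 321 and 30 in Paneth cells (45 and 46, and 26 and 45, in the limma fit). Without the 3 libraries coded HFD they were 2 in Sox9 Low, 0 in Sox9 High (1) and 1 in Sox9 High against Sox9 Low cells (miR-17-5p). Without Paneth libraries 1 to 4 they were 2 in Lgr5 High (1), 1 in Paneth and 1 in Sox9 High against Sox9 Low cells. Keeping entries above the floor in at least 1 library, a filter chosen after seeing the data because no filter at all could not be fitted and was not run, gave 0 in Sox9 High cells. The cause of these changes was not tested.

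With the replicate number as a block over the 12 Sox9 libraries, 1 member (miR-92a-1-3p) was called in Sox9 High against Sox9 Low cells, as in the same libraries without the block (1), so the pairing moved no count there. Against Sox9 Negative cells the numbers did not pair all samples, with correlations down to 0.0403 for Sox9 High and -0.248 for Sox9 Low. In those 12 libraries miR-17-5p in Sox9 Low against Sox9 Negative cells was called with the block (limma, adjusted p = 0.0462) and not without it (limma, adjusted p = 0.0754).

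Leaving out 1 library at a time gave 3 to 5 members called in Sox9 Negative, 1 to 2 in Sox9 Low, 0 to 1 in Sox9 High, 1 to 2 in Lgr5 High, 1 to 2 in CD24Low, 0 to 1 in Paneth, 2 in goblet and 2 to 3 in Tuft cells. Between the fractions it gave 0 to 2 in Sox9 High against Sox9 Low, 2 to 3 in Sox9 High against Sox9 Negative and 1 to 3 in Sox9 Low against Sox9 Negative cells. For log2 ratios the ranges without 1 sample number were 0.79 to 1.64 (miR-17-5p over miR-92a-1-3p, Sox9 High against Sox9 Low), -1.41 to -1.16 (Sox9 High against Sox9 Negative) and -3.06 to -1.94 (Sox9 Low against Sox9 Negative). For miR-106b-3p over miR-17-5p they were -0.79 to 0.23, 1.18 to 1.40 and 0.95 to 2.19 in the same order, and 0.23, without number 3, is the only reversed value.

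Scaling by total UMIs, like the fit of the 12 Sox9 libraries without the block, was chosen after seeing the data. For the hosts, 6 contrasts of a cell type against the rest were called, and 9 with total UMIs, 5 with DESeq2, 5 without the replicate block and 7 without a filter. A single library gave values with no test: -3.75 for Mir17hg in enterocytes from library 1 and 1.46 for Mir17hg in ISC from library 2. In goblet and Tuft libraries 10 reads are worth 31.0 to 68.9, and values under that are listed at 0.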
